A study of Mus musculus with 3 samples.

Results

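The genes described here are 8 genes used to recognise pericytes and other mural cells, out of 32285 genes in the matrix: Rgs5, Abcc9, Kcnj8, Vtn, Pdgfrb, Cspg4, Acta2 and Des. They were chosen by their known use as mural markers and by their UMI counts in mesenchymal cells of both pools of these data, which had been seen before, and they were read within mesenchymal cells. A mesenchymal cell was a cell of the mesenchymal cluster with a unique molecular identifier (UMI, 1 counted transcript) of Col1a1, Col1a2, Col3a1 or Pdgfrb. This gave 267 of 8392 cells, 55 in FTOC and 212 in ORFTOC. Rgs5, Abcc9, Kcnj8 and Vtn are called the core genes, and a mesenchymal cell with a UMI of at least 2 of them is called a co-detecting cell.

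Both pools were wild-type mouse thymus cultures taken on culture day 13 and run in 1 lane of droplet-based single-cell sequencing. The paper states that both were kept in medium with FGF7, with thiazovivin added at the start. The mice were C57BL/6J, and the strain of the fibroblasts added to ORFTOC is not given in the sources used here. FTOC (fetal thymic organ culture) held intact fetal lobes. ORFTOC held reaggregates of thymic epithelial cells grown as organoids, an EpCAM-depleted suspension of fetal thymus and cultured mouse embryonic fibroblasts. By the paper, the organoid epithelium came from older embryos than the lobes and the suspension, which were of the same age. In each pool 2 cultures were mixed before labelling, so each pool was 1 sample and no test between the pools was made. Mesenchymal cells of ORFTOC can come from the fetal thymus or from the added fibroblasts, which cannot be told apart here. Intervals are 95% and cover counting error only, not the spread between cultures. Those of levels and ratios take UMIs as independent and leave out the spread between cells, so they are too narrow where few cells hold most UMIs.

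Mural cells wrap the endothelium of blood vessels. Pericytes sit in the basement membrane of capillaries and are held there by PDGF-B from the endothelium, which acts on PDGFRβ, the product of Pdgfrb. Smooth muscle cells of larger vessels add a contractile apparatus built on smooth muscle actin (Acta2). In the thymus, perivascular mesenchyme descends in part from the neural crest, and pericytes are a known source of sphingosine 1-phosphate, the lipid that guides mature thymocytes out of the organ.

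The median depth was 15673 UMIs per mesenchymal cell in FTOC and 19628 in ORFTOC. Each of the 267 cells held a UMI of all 3 collagens or of Pdgfrb. Among 12 endothelial genes Cdh5, Tek, Tie1, Cldn5 and Esam had 0 UMIs in these cells, while Plvap had 760, Flt1 197 and Kdr 34. Over all 8392 cells Cdh5 had 7 UMIs and Tie1 had 0. Of 8 skeletal muscle genes, which can accompany Des, Tnnt3 had 5 UMIs and Acta1 had 1, and the others had 0. T cell receptor contigs were found in 2 of 55 and 6 of 212 mesenchymal cells.

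Part of the sequence in front of the core genes is shown because these genes were read by their co-detection, and that of Acta2 because it was highest in cells without them. RefSeq promoters (GRCm38.p6, the assembly behind mm10) were matched for 7 of the 8 members. Each run is the 250 bases before the start used in that table, on the strand of the gene, with matches to the motifs searched in capitals. The windows are chr1:169655251-169655500 (plus strand) for Rgs5, chr6:142702275-142702524 (minus) for Abcc9, chr6:142571615-142571864 (minus) for Kcnj8, chr11:78498870-78499119 (plus) for Vtn and chr19:34255374-34255623 (minus) for Acta2. The Abcc9 window lies inside the annotated gene, whose outer end is at 142702766. That of Acta2 lies partly inside its gene, whose outer end is at 34255585. Distances given below are from the start used, which in these genes is not the outermost one.
Rgs5: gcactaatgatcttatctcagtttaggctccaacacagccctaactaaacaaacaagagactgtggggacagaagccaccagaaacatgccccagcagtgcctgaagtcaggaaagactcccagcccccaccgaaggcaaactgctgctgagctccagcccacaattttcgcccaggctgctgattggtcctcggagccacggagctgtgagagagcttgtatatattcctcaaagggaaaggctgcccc
Abcc9: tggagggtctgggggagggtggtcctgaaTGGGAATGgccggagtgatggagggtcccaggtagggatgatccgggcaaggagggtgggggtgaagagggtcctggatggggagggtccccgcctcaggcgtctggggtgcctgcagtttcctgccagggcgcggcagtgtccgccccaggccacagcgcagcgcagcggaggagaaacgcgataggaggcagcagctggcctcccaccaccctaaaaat
Kcnj8: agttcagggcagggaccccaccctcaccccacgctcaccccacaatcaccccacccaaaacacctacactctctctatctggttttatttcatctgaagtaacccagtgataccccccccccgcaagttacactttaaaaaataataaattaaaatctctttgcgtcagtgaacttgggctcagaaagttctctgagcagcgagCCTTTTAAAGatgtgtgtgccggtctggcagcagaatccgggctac
Vtn: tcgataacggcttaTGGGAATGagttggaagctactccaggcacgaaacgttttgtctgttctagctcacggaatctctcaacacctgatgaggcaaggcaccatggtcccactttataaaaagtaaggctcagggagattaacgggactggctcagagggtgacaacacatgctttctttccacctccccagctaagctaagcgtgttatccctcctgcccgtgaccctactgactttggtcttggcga
Acta2: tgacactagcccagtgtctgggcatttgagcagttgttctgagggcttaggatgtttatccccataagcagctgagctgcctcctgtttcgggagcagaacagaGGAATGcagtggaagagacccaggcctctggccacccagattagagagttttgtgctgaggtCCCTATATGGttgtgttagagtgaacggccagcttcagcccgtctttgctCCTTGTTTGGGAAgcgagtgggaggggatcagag

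The motifs were the CArG box (bound by SRF), TGGGAA (RBPJ, the factor of Notch signalling), CATTCC (TEAD) and TGTTTAC (forkhead factors), searched on both strands from 250 bases before to 50 bases after each start. The exact CArG box and TGTTTAC were in 0 of the 7 members, against 1.63% and 3.65% of all 32851 promoters. With at most 1 mismatch, a form added after the members had been seen, the CArG box was in 3 members (Acta2, Kcnj8 and Cspg4) and in 21.1% of all promoters. In Acta2 it matched CCCTATATGG, 84 to 75 bases before the start, and CCTTGTTTGG, 34 to 25 bases before it. TGGGAA was in 4 members (Abcc9, Kcnj8, Vtn and Acta2) and in 25.6% of all promoters, and CATTCC was in 3 (Abcc9, Vtn and Acta2) and in 14.7%. In Abcc9 and Vtn they overlapped as TGGGAATG, which begins 221 and 236 bases before the start. This joined form was also looked for only after it had been seen, and 1.46% of all promoters held it. A match is a run of letters in a window, not a site of binding.

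Rgs5, a regulator of G protein signalling and a widely used pericyte marker, was found mainly outside the mesenchyme. Of its 7790 UMIs, 7369 (94.6%) were in epithelial cells and 281 (3.61%) in mesenchymal cells. In epithelial cells its level was 233 UMIs per 1000000 (CPM, interval 225 to 242) in FTOC and 258 CPM (251 to 266) in ORFTOC. In mesenchymal cells it was 123 CPM and 34.8 CPM, and in immune cells 3.10 and 4.37 CPM. The use of Rgs5 alone as a mural label went against these values, and it is read below together with the other core genes.

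The other members lay mainly in mesenchymal cells. The share of a gene's UMIs found there was 98.7% for Des, 98.4% for Abcc9, 96.2% for Vtn, 90.0% for Pdgfrb, 83.9% for Kcnj8, 81.1% for Acta2 and 70.0% for Cspg4. Most of the remaining Acta2 was epithelial (18.4% of its UMIs) and most of the remaining Kcnj8 immune (15.4%). Cspg4 had 120 UMIs in all cells.

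**Figure D1:**
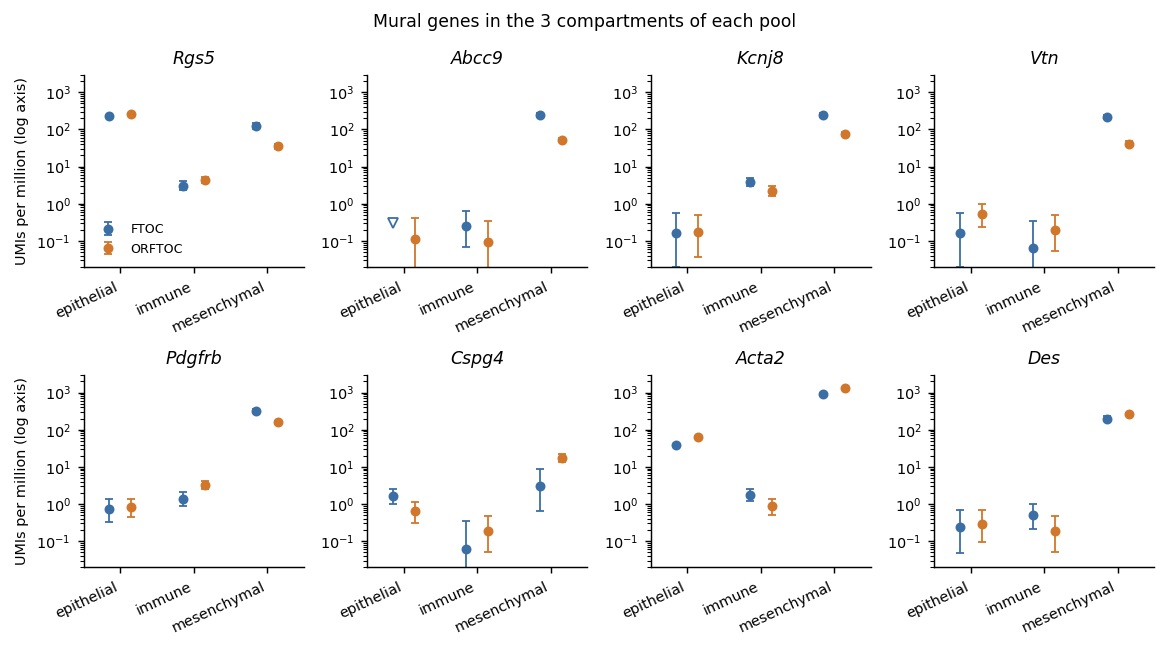
Level of each of the 8 genes (CPM, log axis) in epithelial, immune and mesenchymal cells of FTOC (blue) and ORFTOC (orange). Points are sums over the cells of a pool, bars are exact Poisson intervals, and the open triangle is the upper bound where no UMI was found. Rgs5 stood at 233 and 258 CPM in epithelial cells, above both of its mesenchymal levels, while Abcc9, Vtn and Des were below 1 CPM outside mesenchymal cells.

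A larger share of mesenchymal cells co-detected the core genes in FTOC. These genes were chosen with the ratios of the pools known, so this is a description and nothing is read from it. The share was 42 of 55 cells in FTOC (76.4%, 63.0 to 86.8%) and 80 of 212 in ORFTOC (37.7%, 31.2 to 44.6%). Outside the mesenchyme 2 of 2190 epithelial cells (0.0913%) and 2 of 5935 immune cells (0.0337%) held at least 2 core genes, although 613 epithelial cells held at least 1, and 602 of them held Rgs5. All 4 core genes were found in 12 FTOC cells (21.8%) and 7 ORFTOC cells (3.30%). None was found in 5 FTOC cells (9.09%) and 76 ORFTOC cells (35.8%). With each cell thinned to 5000 UMIs, the co-detecting share was 55.7% in FTOC and 19.6% in ORFTOC, where 1 cell was too shallow to enter.

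The order of the pools depended on the denominator. Co-detecting cells were 1.01% of all FTOC cells (0.731 to 1.37%) and 1.88% of all ORFTOC cells (1.50 to 2.34%), since mesenchymal cells made up 1.33% of FTOC and 4.99% of ORFTOC. When the collagen or Pdgfrb condition was applied to all cells with no regard to cluster, it took 810 cells, of which 186 were epithelial and 357 immune. The co-detecting share was then 13.3% in FTOC (42 of 315) and 16.4% in ORFTOC (81 of 495), so that the pools changed order.

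**Figure D2:**
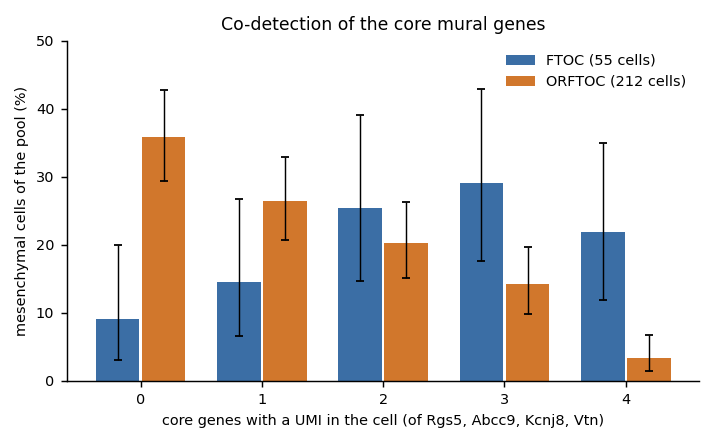
Share of mesenchymal cells (%, from 0) by the number of core genes with a UMI in the cell, for FTOC (55 cells, blue) and ORFTOC (212 cells, orange), with exact binomial intervals. The most frequent number was 3 core genes in FTOC (29.1%) and none in ORFTOC (35.8%).

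Abcc9 and Kcnj8 encode the regulatory subunit and the pore of the ATP-sensitive potassium channel of vascular mural cells. The genes are neighbours on chromosome 6, with Kcnj8 at chr6:142564837-142571614 and Abcc9 at chr6:142587862-142702766 (GRCm38.p6), 16247 bases apart with 0 annotated genes lying wholly between them. Abcc9 had 235 UMIs in 44 FTOC cells (242 CPM, 212 to 275) and 246 UMIs in 87 ORFTOC cells (52.9 CPM, 46.5 to 59.9). Its median was 3 UMIs per cell in FTOC, with a highest value of 25, and 0 in ORFTOC, with a highest value of 10. Kcnj8 had 243 UMIs in 40 FTOC cells (250.2 CPM) and 347 UMIs in 95 ORFTOC cells (74.6 CPM), with medians of 3 and 0 UMIs and highest values of 30 and 15. Abcc9 was thus in 80.0% of FTOC and 41.0% of ORFTOC cells and Kcnj8 in 72.7% and 44.8%, and single cells of the pools overlapped in level.

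The subunits went together cell by cell. Of the FTOC cells with Kcnj8, 36 of 40 (90.0%) also held Abcc9, against 8 of 15 (53.3%) of those without Kcnj8. In ORFTOC these shares were 59 of 95 (62.1%) and 28 of 117 (23.9%). Pearson's r of their log levels over cells was 0.57 in FTOC (n = 55 cells) and 0.50 in ORFTOC (n = 212 cells), the highest among the member pairs of each pool. Cells of a pool share a library and differ in depth, so this is a description. Abcc8 and Kcnj11, the subunits of this channel in pancreatic beta cells, had 0 UMIs in mesenchymal cells.

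Vtn encodes vitronectin, an adhesive glycoprotein made by pericytes of the brain. It had 213 UMIs in 28 FTOC cells (219 CPM) and 192 UMIs in 42 ORFTOC cells (41.3 CPM), with medians of 1 and 0 UMIs and highest values of 32 and 24. The 5 highest cells held 52.6% of the UMIs in FTOC and 39.6% in ORFTOC, against 32.8% and 17.5% for Abcc9 and 46.1% and 19.0% for Kcnj8. Vtn was found in fewer cells of each pool than either channel subunit. Rgs5 was found in fewer still, with 119 UMIs in 20 FTOC cells and 162 UMIs in 36 ORFTOC cells, and 15 of these cells in each pool also held Vtn.

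Pdgfrb, the PDGF receptor of pericytes and also of many fibroblasts, was found in the largest share of cells, which its place in the gate favours. It had 307 UMIs in 49 FTOC cells (316 CPM, 282 to 354) and 728 UMIs in 175 ORFTOC cells (157 CPM, 145 to 168), with medians of 5 and 2 UMIs. In FTOC it was at 353 CPM (311 to 399.8) in co-detecting and 215 CPM (162 to 279) in other cells. In ORFTOC these levels were 172 CPM (151 to 194) and 149 CPM (136 to 163), with overlapping intervals.

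Cspg4 (NG2, a proteoglycan by which pericytes are often stained) had 3 UMIs in 3 FTOC cells and 81 UMIs in 26 ORFTOC cells. It did not follow the core genes in ORFTOC, where 65 of the 81 UMIs (80.2%) were in the 76 cells with no core gene. These 76 cells held 41.6% of all UMIs of ORFTOC mesenchymal cells. The 5 highest cells, all without a core gene, held 58.0% of the Cspg4 UMIs of ORFTOC, so few cells carry this share. Acta2 was found in 25 of the 26 ORFTOC cells with Cspg4 (96.2%), against 53.2% of those without it. In co-detecting cells Cspg4 had 1 UMI in FTOC and 10 in ORFTOC.

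In summed UMIs Acta2 also ran apart from the core genes in ORFTOC. By detection it hardly did. Acta2 was in 58.3% of ORFTOC cells with Rgs5 and 58.5% of those without. These shares were 61.9% and 57.6% for Vtn, 55.2% and 60.8% for Abcc9, and 55.8% and 60.7% for Kcnj8. Acta2 had 867 UMIs in 31 FTOC cells (893 CPM, 834 to 954) and 6213 UMIs in 124 ORFTOC cells (1336 CPM, 1303 to 1369). The median was 1 UMI per cell in both pools, the highest values were 182 and 526, and the 5 highest cells held 67.9% and 36.4% of the UMIs. A few cells therefore set the level. In FTOC it was 743 CPM in co-detecting and 1301 CPM in other cells, and in ORFTOC 496 and 1731 CPM. The FTOC contrast rests largely on 1 cell, which held 182 of the 339 Acta2 UMIs of the 13 other cells.

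By the number of core genes in the cell, Acta2 in ORFTOC was at 2015 CPM with none, 1285 CPM with 1, 682 CPM with 2 and 258 CPM with 3 or 4. In FTOC the same levels were 2553, 234, 1713 and 329 CPM, with no steady order. The ORFTOC level with 2 core genes rests largely on 1 cell, which held 435 of the 571 Acta2 UMIs there. No steady fall is therefore read in ORFTOC. The 76 ORFTOC cells with no core gene held 62.7% of the Acta2 UMIs and 61.7% of those of Tagln, a contractile partner, but 41.6% of all UMIs of the mesenchymal cells. They held 43.3% of the Pdgfrb UMIs and 14.1% of the Des UMIs.

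Des encodes desmin, the intermediate filament of muscle and of many pericytes. It had 194 UMIs in 29 FTOC cells (199.8 CPM, 173 to 230.0) and 1269 UMIs in 121 ORFTOC cells (273 CPM, 258 to 288), with highest values of 29 and 54 UMIs. It was higher in co-detecting cells of both pools, at 232 against 111 CPM in FTOC and 459 against 185 CPM in ORFTOC. Without the cells holding a UMI of Epcam or Ptprc, the log2 fold was 0.57 in FTOC and 1.28 in ORFTOC. Des followed Vtn in ORFTOC, where 37 of 42 cells with Vtn held it (88.1%) against 49.4% of those without. In FTOC these shares were 53.6% and 51.9%.

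**Figure D3:**
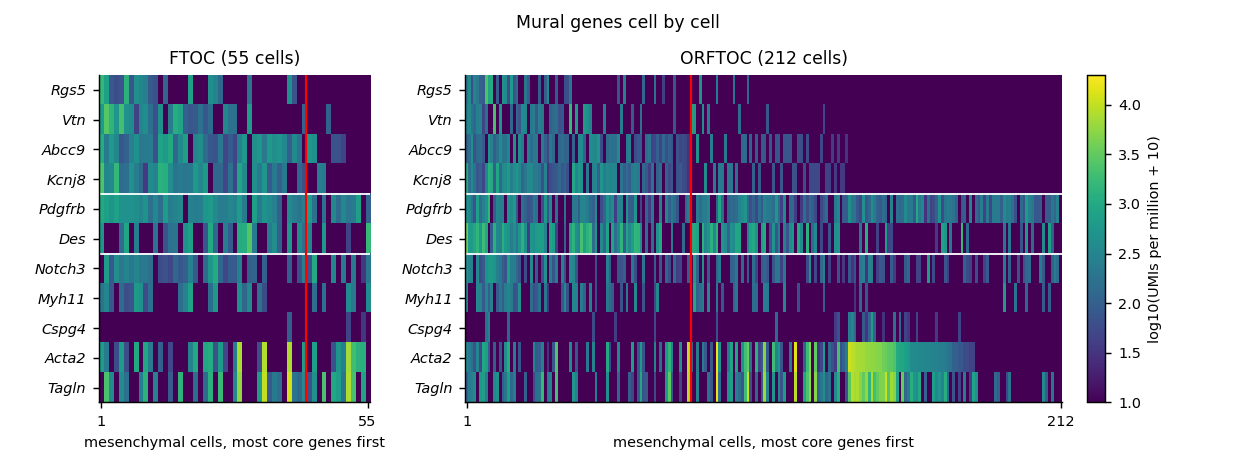
Level of the 8 members and of Notch3, Myh11 and Tagln in each mesenchymal cell of FTOC (left) and ORFTOC (right), as log10 of CPM plus 10. Each column is 1 cell, ordered by the number of core genes, then by their summed level and then by Acta2, and the red line follows the last co-detecting cell (42 in FTOC, 80 in ORFTOC). Pdgfrb runs along both panels, and in ORFTOC a block of cells with no core gene is bright in Acta2 and Tagln.

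Over all mesenchymal cells 5 of the 8 members were at least 2-fold lower in ORFTOC: Vtn (5.31-fold), Abcc9 (4.58-fold), Rgs5 (3.52-fold), Kcnj8 (3.35-fold) and Pdgfrb (2.02-fold). Among 6723 genes with at least 20 CPM in either pool, a minimum that 7 of the 8 members reached, 3.02% were. Cspg4 was 5.64-fold higher (1.86 to 27.9) on 3 UMIs in FTOC. At 17.4 CPM in ORFTOC and 3.09 CPM in FTOC it was under that minimum. Of the 6723 genes 1.73% were at least 2-fold higher, a share that does not cover genes as low as Cspg4. The members were chosen with these ratios known, so nothing is read from this. Pdgfrb was less than 2-fold lower, which left 4 members, with doublets kept, with compartments set per cell, with cells thinned to 5000 UMIs and with equal weight for each cell (log2 ratios of -0.89, -0.99, -0.95 and -0.94). Acta2 was 1.50-fold higher (1.39 to 1.61). Des was 1.37-fold higher (1.17 to 1.60), and with hashtags assigned by the ratio of their counts its log2 ratio was -0.0051. With the gate applied to all cells the log2 ratio of Pdgfrb was 0.0367, against -1.01 in mesenchymal cells.

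Ratios between the pools were also taken within co-detecting cells. These cells were chosen by UMIs of the core genes, which leaves out cells at or near 0 and brings the pools closer in these 4 genes by construction, so their values there are no result. The log2 ratio of ORFTOC over FTOC was -1.48 for Vtn, -1.16 for Abcc9, -0.84 for Rgs5 and -0.72 for Kcnj8 there, and -2.41, -2.19, -1.81 and -1.75 over all mesenchymal cells. For Pdgfrb it was -1.04 and -1.01. For Des it was 0.98 and 0.45. Acta2 changed sign, with -0.58 in co-detecting cells and 0.58 in all mesenchymal cells. Single cells weighed on the first value, so the change of sign is not read as a result. Among co-detecting cells 1 FTOC cell held 181 of 528 Acta2 UMIs, and 1 ORFTOC cell held 435 of 739.

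Co-detecting and other mesenchymal cells were then set side by side in each pool. The core genes defined these classes and their folds are no result. Of 23 further pericyte and mural genes 18 reached 20 CPM in both pools, 10 were higher in co-detecting cells of both, and 2 were at least 2-fold higher in both, Cox4i2 and Heyl. None was at least 2-fold lower in both. Over the 6209 genes compared, 32.1% were higher in both pools by any size, 1.16% were at least 2-fold higher and 0.902% at least 2-fold lower in both pools. The median log2 fold of the 18 was 0.73 in FTOC and 0.67 in ORFTOC, against 0.03 and 0.05 over all genes compared.

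Cox4i2, a respiratory chain subunit, was at 125 CPM in co-detecting and 26.9 CPM in other cells of FTOC (89 and 7 UMIs), and at 25.5 and 10.8 CPM in ORFTOC. Heyl, a target of Notch signalling, had 40 and 1 UMIs in FTOC and was at 54.4 and 26.6 CPM in ORFTOC. Its log2 fold was 1.72 in FTOC and 0.93 in ORFTOC, under 2-fold in the latter, without the cells holding a UMI of Epcam or Ptprc. Notch3, the Notch receptor of mural cells, was at 155 and 111 CPM in FTOC, where the interval of the fold (0.917 to 2.17) held 1, and at 99.4 and 56.3 CPM in ORFTOC (1.41 to 2.21). Gucy1a1, a subunit of the nitric oxide receptor, had 51 and 3 UMIs in FTOC and was at 49.7 and 35.4 CPM in ORFTOC. Higd1b, under the minimum, had 11 UMIs in FTOC and 3 in ORFTOC, all in co-detecting cells. Most of the further mural genes did not reach 2-fold in both pools.

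Of 14 contractile genes of smooth muscle 10 reached the minimum. None was 2-fold higher in co-detecting cells of both pools, 1 was 2-fold lower in both, and the median log2 fold was -0.39 in FTOC and -0.34 in ORFTOC. The gene lower in both was Actg2, the smooth muscle gamma actin, with 29 and 34 UMIs in FTOC and 2 and 367 UMIs in ORFTOC. Tagln was at 897 against 1493 CPM in FTOC and at 485 against 1659 CPM in ORFTOC. In FTOC 1 cell held 213 of the 389 Tagln UMIs of the other cells. Myl9, a myosin light chain, was at 187 against 341 CPM and at 122 against 237 CPM. Myh11, the smooth muscle myosin heavy chain, went the other way in ORFTOC, at 72.5 against 28.1 CPM, and was at 114 against 88.2 CPM in FTOC with 1 inside the interval of the fold. Myocd, the coactivator of smooth muscle genes, had 0 UMIs.

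Of 14 fibroblast genes 12 reached the minimum, and Mfap5 alone differed 2-fold in both pools, being lower in co-detecting cells. Its log2 fold was -0.53 in FTOC, under 2-fold, and -1.23 in ORFTOC without the cells holding Epcam or Ptprc. Pdgfra, the PDGF receptor of fibroblasts, was at 384 CPM in co-detecting and 414 CPM in other cells of FTOC, and at 346 and 279 CPM in ORFTOC. Dcn, the proteoglycan decorin, was at 4147 and 3518 CPM in FTOC and at 2653 and 2277 CPM in ORFTOC. Col1a1 was at 6037 and 7842 CPM in FTOC and at 4779 and 9636 CPM in ORFTOC. Co-detecting cells thus held fibroblast genes as well as the core genes, and they are not called pericytes here.

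**Figure D4:**
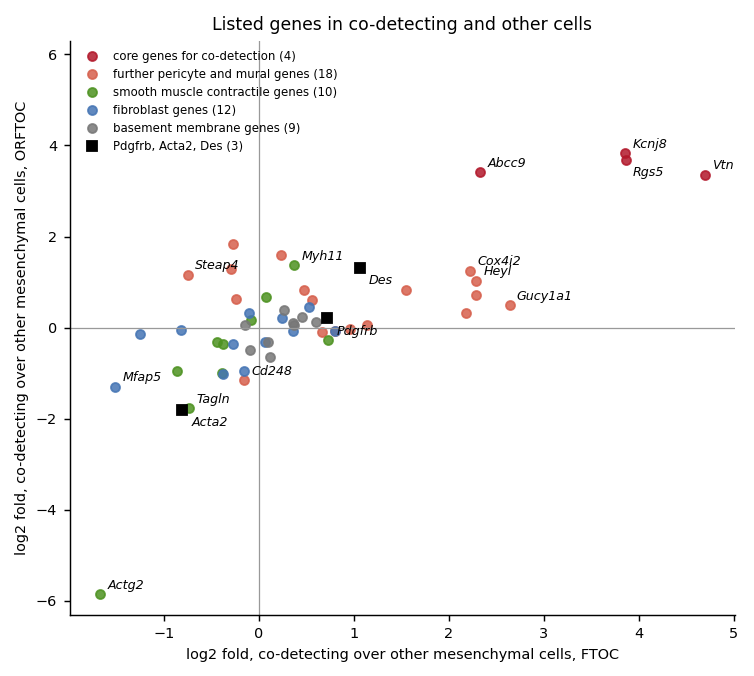
Log2 fold of co-detecting over other mesenchymal cells in FTOC (horizontal axis) and ORFTOC (vertical axis) for listed genes with at least 20 CPM in both pools. Circles are genes coloured by list, black squares are Pdgfrb, Acta2 and Des, and grey lines mark no difference. The core genes, which defined the classes, lie at the upper right, and Acta2, Tagln and Actg2 at the lower left. In FTOC 1 of the 13 other cells held 182 of their 339 Acta2 UMIs and 213 of their 389 Tagln UMIs.

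Among 16 genes that recruit and hold pericytes, 8 reached the minimum and 2, both Notch targets, were at least 2-fold higher in co-detecting cells of both pools. They were Heyl and Hey1, which had 23 and 1 UMIs in FTOC and was at 29.5 and 10.1 CPM in ORFTOC. Heyl was under 2-fold in ORFTOC without the cells holding Epcam or Ptprc, as given above, and Hey1 was under 2-fold in FTOC, at a log2 fold of 0.68, in cells with at least 3 core genes against none. The ligand Pdgfb had 0 UMIs in FTOC and 9 in ORFTOC mesenchymal cells. Of 9 basement membrane genes none differed 2-fold between the classes in both pools. Between the pools 8 of the 9 were lower in ORFTOC, as were 61.7% of the 6723 genes, and 2 were at least 2-fold lower, Col4a1 (849 against 1719.8 CPM) and Nid2 (44.1 against 114 CPM).

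Of 9 sphingosine 1-phosphate genes 8 reached the minimum and none differed 2-fold in both pools. Sphk1, a kinase that makes the lipid, was at 76.0 against 49.9 CPM in FTOC, with 1 inside the interval of the fold, and at 73.2 against 40.5 CPM in ORFTOC. Spns2, its exporter, was at 54.9 against 76.7 CPM in FTOC, again with 1 inside the interval, and at 51.7 against 20.2 CPM in ORFTOC. Of 9 signals of thymic mesenchyme 6 reached the minimum, and Aldh1a2, which makes retinoic acid, was 2-fold higher in both pools (32 and 4 UMIs in FTOC, 84 and 62 UMIs in ORFTOC). In cells with at least 3 core genes against none, its log2 fold was 0.90 in FTOC and -2.27 in ORFTOC, where the direction turned. Of 7 neural crest and Schwann genes only Ngfr reached the minimum, at 199.9 against 107 CPM in FTOC and 158 against 84.4 CPM in ORFTOC, while Sox10 and Foxd3 had 0 UMIs.

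Beyond the lists, genes with at least 100 CPM were ranked by the smaller of their folds in the pools, a description since the classes come from the same cells. Ifitm1, an interferon-induced membrane protein, was at 922 against 130.5 CPM in FTOC and 826 against 213 CPM in ORFTOC. Apoe, the lipid carrier, was at 4274 against 1297 CPM and 5032 against 1525 CPM. Sfrp4, a modulator of Wnt signalling, was at 166 against 19.2 CPM and 205 against 64.5 CPM. Ccl19, a ligand of the chemokine receptor CCR7, was at 3632 against 1727 CPM and 7896 against 2514 CPM. The other genes among the 15 highest were Akr1cl, Csf2rb, Col6a4, Isyna1, Nr2f1, Pi15, Clu, Des, Cgnl1, Ifi27l2a and Rasa3. Without the cells holding a UMI of Epcam or Ptprc, Csf2rb, Clu, Ccl19 and Des had log2 folds of 0.58, 0.61, 0.64 and 0.57 in FTOC.

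The 8 lowest were Igfbp2, Col8a1, Inhba, Ccn3, Timp3, Crabp1, Fbln2 and Spp1. Spp1 (osteopontin) was at 6.71 CPM in co-detecting and 1461 CPM in other cells of ORFTOC, and at 196 and 645 CPM in FTOC. Crabp1, which binds retinoic acid, was at 9.40 and 309 CPM in ORFTOC and at 74.6 and 414 CPM in FTOC. The FTOC values rest on 13 other cells, of which 2 held a Ptprc UMI. Without the cells holding Epcam or Ptprc the log2 fold in FTOC turned to 2.80 for Spp1, 1.20 for Ccn3 and 0.43 for Timp3, and the other 5 genes stayed negative in both pools.

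By likeness over the 267 cells the genes closest to the summed core genes were Ifitm1 (Pearson's r = 0.58), Apoe (0.55), Rbpms (0.46), Ptp4a3 (0.46), Nr2f1 (0.45), Tmem176b (0.44), Enpp2 (0.44), Cbfa2t3 (0.44), Pi15 (0.44) and Igfbp7 (0.42). In FTOC alone r was 0.22 for Rbpms, 0.16 for Tmem176b and 0.19 for Enpp2.

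Epithelial markers were higher in co-detecting cells of both pools, and immune markers in those of ORFTOC only. The 6 epithelial markers summed to 214 CPM in co-detecting and 42.2 CPM in other cells of FTOC, and to 457 and 23.4 CPM in ORFTOC, with Cldn3 at 0 throughout. The 6 immune markers summed to 40.8 and 46.0 CPM in FTOC and to 222 and 87.9 CPM in ORFTOC. Epcam was found in 4 of 42 and 4 of 80 co-detecting cells. Without the cells holding Epcam or Ptprc the co-detecting share was 76.6% in FTOC (36 of 47) and 36.1% in ORFTOC (69 of 191). The log2 fold of Krt18 was then -2.91 and -0.92. The genes at least 2-fold higher in both pools went from 72 to 40, with the number of genes compared free to differ. The median depth was 15501 UMIs in co-detecting and 16877 in other cells of FTOC, and 16735 and 22066 in ORFTOC.

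Sex-linked genes also differed between the classes. Cells with a Y-linked UMI and no Xist were 0 of 42 co-detecting and 3 of 13 other cells in FTOC, and 23 of 80 (28.8%) and 64 of 132 (48.5%) in ORFTOC. The embryo of origin and the class cannot be told apart from these counts.

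The epithelial Rgs5 was highest in 2 clusters. In the cluster led by Aqp3, Cxcl14 and Fbln1 it was at 266 CPM (256 to 277) in FTOC and 532 CPM (516 to 549.5) in ORFTOC. In the cluster led by Calcb, Psors1c2, Wfdc21 and Aire, the regulator of self-antigen expression in the medulla, it was at 384 CPM (350.2 to 421) and 471 CPM (415 to 532), with a UMI in 41 of 52 and 20 of 29 cells. In the cluster led by Tbata, Psmb11 and Ccl25, genes of the thymic cortex, it was at 24.3 and 57.2 CPM. In the cluster led by Bpifa1 it was at 17.4 and 30.9 CPM, and those led by Foxi1 and Gnat3 had 1 and 0 UMIs in 44 and 24 cells.

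Droplets without a cell held Rgs5 at 67.4 CPM, below the 2 high clusters and above the others. This was also below the 123 CPM of FTOC mesenchymal cells and above the 34.8 CPM of ORFTOC mesenchymal cells. The droplet value is a level in free RNA alone, and the part of free RNA in the clusters was not tested. Free RNA was estimated at no more than 7.51% of UMIs in ORFTOC mesenchymal cells. Its part in cells called by a single Rgs5 UMI there was not tested. Of 602 epithelial cells with Rgs5, 599 held Epcam and 2 held Abcc9, Kcnj8 or Vtn. The 208 cells with at least 10 UMIs held 81.4% of the epithelial Rgs5 UMIs, and 0 of them held those 3 genes. Over 2190 epithelial cells the genes most like Rgs5 were Gm10851 (Pearson's r = 0.57), Lpo (0.51), Srgn (0.49), Ptprq (0.46), Il4i1, Ccl19, Krt17, Galnt18, Aadac and Skint7 (0.42), of which none is in the mural lists.

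**Figure D5:**
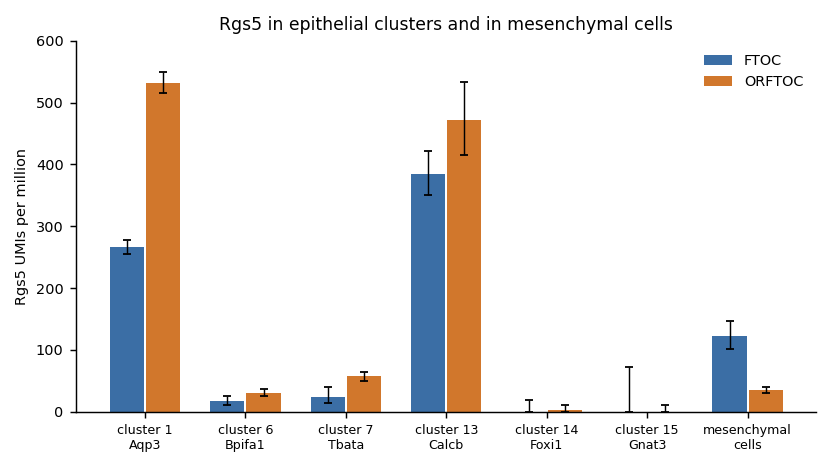
Rgs5 level (CPM, from 0) in each epithelial cluster, named by number and first leading gene, and in mesenchymal cells, for FTOC (blue) and ORFTOC (orange), with exact Poisson intervals. The clusters led by Aqp3 and Calcb stood at 266 to 532 CPM and mesenchymal cells at 123 and 34.8 CPM.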

How the data were processed

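Gene expression, T cell receptor and hashtag libraries came from 1 lane with 5′ chemistry. The authors aligned reads to mm10 with Cell Ranger 6.1.2 per the study's notes, while the matrix header names version 4. The deposited matrix held unfiltered counts of UMIs per gene and barcode, hashtags included, and the deposited contig list held counts of UMIs and reads.

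Barcodes with at least 600 genes and 0.4 to 10% mitochondrial UMIs were kept (10245 of 705161). Hashtags were assigned with HTODemux (Seurat 5.3.0), and same-pool doublets were taken out with a neighbour rule (50 neighbours, 50 components), leaving 4144 FTOC and 4248 ORFTOC cells. Cells were clustered after SCTransform (sctransform 0.4.2, R 4.3.3, cell cycle regressed out, 18 components, resolution 0.4), and each cluster was given the compartment whose markers had the largest mean log2 fold. UMIs were summed over cells and scaled to counts per 1000000 (CPM). Intervals were Clopper-Pearson for shares, exact Poisson for levels and exact conditional binomial for ratios, with a count under 3 set to 3 in ratios. Sums and intervals were computed in Python 3.11.15 (scipy 1.17.1, numpy 2.4.6, pandas 2.3.3), and the statistics were tested on simulated data. The simulated counts for ratios were Poisson without spread between cells, so they could not show intervals that are too narrow for that reason. Alternatives covered hashtags, doublets, filters, compartments, the gate, ambient RNA, depth and thresholds.

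Genes named were the members, listed genes at the minimum, the 15 highest and 8 lowest in co-detecting over other cells of both pools (at least 100 CPM) and the 10 most like the core genes. Genes given under the minimum were named after their values were seen. Members and lists were chosen with earlier results of these data known. Some genes counted in the lists are not reported here by name.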

Additional observations from a re-analysis of the deposited data

Results flagged for a closer look

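In 6 listed genes co-detecting cells differed from other mesenchymal cells in opposite directions in the pools, each with a counting interval clear of no difference. The difference between the pools was not tested, and the FTOC values rest on 13 other cells. These genes were found by looking through the lists. The share of all genes that do the same was not counted, so nothing is read from their number. On the log2 scale Steap4, a metalloreductase, was at -0.75 in FTOC and 1.16 in ORFTOC, and Igf2, the fetal growth factor, at -0.56 and 0.65. The order was the reverse for Tgfb1 (1.48 and -0.84), its receptor gene Tgfbr2 (0.69 and -0.39), the collagen gene Col5a1 (0.44 and -0.45) and Cald1, which encodes caldesmon (0.73 and -0.27). Without the cells holding a UMI of Epcam or Ptprc Igf2 was at 2.39 in FTOC, positive as in ORFTOC, and the other 5 genes kept opposite signs.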

How the results depend on the processing

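The co-detecting share stayed within its counting interval in both pools with hashtags assigned by the ratio of counts, doublets kept, compartments set per cell, or cells with Epcam or Ptprc left out. At least 1000 genes and all 3 collagens or Pdgfrb left the same cells, and ambient RNA subtracted left the same calls, so these say nothing on the stability of the share. It moved with cells thinned (55.7% in FTOC, 19.6% in ORFTOC), at least 1 core gene (90.9%, 64.2%), at least 3 (50.9%, 17.5%) and the gate over all cells (13.3%, 16.4%), where the pools changed order. Of 2 definitions added after the data were seen, at least 2 of Abcc9, Kcnj8 and Vtn gave 70.9% and 34.4%, and 2 UMIs of each core gene gave 63.6% and 24.5%. Of 72 log2 ratios of members under the 9 alternatives that changed cells or counts, 54 stayed within the interval of the reported ratio, 16 left it with the same sign and 2 changed sign (Des -0.0051 with hashtags by ratio, Pdgfrb 0.0367 with the gate over all cells). That gate gave 3 members 2-fold lower and 3 higher, and 4 alternatives gave 4 lower, without Pdgfrb. The share of all genes past 2-fold was not counted under these alternatives, so nothing is read from these counts. Genes 2-fold lower and higher in ORFTOC were 203 and 116 of 6723. Of the same genes 34 and 24 were past 4-fold. At 100 CPM, where fewer genes were compared, 39 and 22 were past 2-fold. In the contrast of classes 72 and 56 of 6209 genes were 2-fold higher and lower in both pools. In alternatives added after the data were seen, these were 40 and 33 without cells with Epcam or Ptprc. In cells with at least 3 core genes against none, 121 were lower. The number of genes compared can differ between these alternatives, so nothing is read from the changes in count. Apart from the fewer cells or genes an alternative leaves, the cause was not tested. No paired analysis was possible because each pool was 1 sample.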

Other observations

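Kcnj8 UMIs were also found in immune cells, at most 3 in a cell. Of its 108 UMIs there, 37 in FTOC and 33 in ORFTOC lay in the cluster led by Xcl1, Ly6c2, Klrd1 and Gzmc, genes of cytotoxic lymphocytes. In that cluster 31 of 550 FTOC cells (5.64%, 3.86 to 7.91%) and 29 of 510 ORFTOC cells (5.69%, 3.84 to 8.06%) held a UMI, at 6.33 CPM (4.46 to 8.72) and 5.38 CPM (3.70 to 7.56). Droplets without a cell held Kcnj8 at 4.48 CPM, a level in free RNA alone that cannot be set directly against that of cells. Free RNA was estimated at no more than 5.38% of UMIs in FTOC and 7.51% in ORFTOC mesenchymal cells. Its part in the Kcnj8 UMIs of immune cells was not tested. The cluster led by C1qb and C1qa, genes of macrophages, had 0 UMIs in 52 FTOC and 166 ORFTOC cells. This allows shares of up to 6.85% and 2.20% of cells with a UMI, which is no limit on cells that express the gene at a low level. The median depth was 9576 and 11019.5 UMIs per cell in the first cluster and 11709 and 18163 in the second. Abcc9 had 6 UMIs in all immune cells.

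Droplets without a cell held Acta2 at 35.6 CPM, a level in free RNA alone. Epithelial Acta2 lay mainly in the cluster led by Aqp3, at 52.0 CPM in FTOC and 151 CPM in ORFTOC, with a UMI in 63 of 730 and 99 of 521 cells. Over 2190 epithelial cells the genes most like it were Myl9 (Pearson's r = 0.34), Vwa1 (0.23), Krt14 (0.21) and Tagln (0.21).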
